A study of Mus musculus with 8 samples.

Results

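The endothelial junction and surface genes are 10 genes chosen by name from the deposited table of read counts: Cdh5, Pecam1, Esam, Cldn5, Icam2, Emcn, Clec14a, Robo4, Cd34 and Plvap. All 10 were found by gene name among the 41128 genes of the table, and all 10 were among the 14179 genes with enough reads to be tested. They were counted in 8 RNA-seq libraries of mouse haemogenic endothelium, the endothelium that gives rise to blood cells, obtained by differentiating embryonic stem cells of strain C57BL/6. The study set 4-hydroxytamoxifen (4OHT) against ethanol (EtOH, its solvent) in a line labelled Hdac2lox/lox and in a line labelled Hdac1lox/lox, with 2 libraries in each of the 4 groups, and its stated design is deletion of Hdac1 or Hdac2, which encode histone deacetylases. 4OHT is widely used to switch on a tamoxifen-dependent Cre recombinase, but the labels name no Cre, its driver, a dose or a time. The 4 groups were Hdac2lox/lox cells given 4OHT, Hdac2lox/lox cells given EtOH, Hdac1lox/lox cells given 4OHT and Hdac1lox/lox cells given EtOH. Every library therefore came from cells with lox alleles, and no line without them is among the samples. No label says that the 2 libraries of a group came from separate cultures, so the p-values cover the spread among these 8 libraries, part or all of which may be technical.

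Endothelial cells are joined edge to edge by junctions in which VE-cadherin, the product of Cdh5, binds its like on the neighbouring cell. PECAM1, ESAM and ICAM2 are immunoglobulin-type adhesion molecules of the same cell borders, and claudin 5, the product of Cldn5, seals tight junctions. Of the others, endomucin (Emcn) and CD34 are heavily glycosylated sialomucins, CLEC14A is a lectin-like receptor that binds the matrix protein multimerin 2, ROBO4 is a roundabout-family receptor that steadies the vessel wall, and PLVAP forms the diaphragms that span endothelial fenestrae and caveolae. In the endothelial-to-haematopoietic transition, cells of the haemogenic endothelium lose junctions and round up as they become blood cells, while CD34 and PECAM1 are also found on early blood cells.

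In the mm10 coordinates of the deposited table, the junction genes lie on several chromosomes: Cdh5 (ENSMUSG00000031871) at chr8:104101625-104144502, Pecam1 (ENSMUSG00000020717) at chr11:106654217-106750628, Esam (ENSMUSG00000001946) at chr9:37528078-37538319, Cldn5 (ENSMUSG00000041378) at chr16:18776847-18778260 and Icam2 (ENSMUSG00000001029) at chr11:106377656-106388075. The other surface genes are Emcn (ENSMUSG00000054690) at chr3:137341067-137432185, Clec14a (ENSMUSG00000045930) at chr12:58264720-58269258, Robo4 (ENSMUSG00000032125) at chr9:37401897-37414023, Cd34 (ENSMUSG00000016494) at chr1:194938821-194961292 and Plvap (ENSMUSG00000034845) at chr8:71497754-71511769. Pecam1, Icam2, Clec14a and Plvap are on the minus strand and the others on the plus strand. In the GENCODE M21 annotation all 10 are protein-coding, and Cldn5 and Clec14a each have 1 exonic block, while the others have 6 to 17. Plvap overlaps Gtpbp3 on the opposite strand, which averaged 38.6 CPM over the libraries, so some of its reads could have been assigned to either gene. Robo4 and Esam are near neighbours, 114 kb apart, as are Icam2 and Pecam1, 266 kb apart.

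The promoters and the short letter motifs in them are shown as a description of the sequence. Whether any motif goes with the differences between the genes was not tested. The RefSeq promoter table for GRCm38.p6 held 5 of the 10 genes. It did not yield Cdh5, Pecam1, Esam, Icam2 or Plvap. Each sequence is the 250 bases before the annotated start, read 5′ to 3′ on the gene's own strand, with the ETS-like motif AGGAAG or its reverse complement CTTCCT in capitals. The windows are chr9:37401722-37401971 (plus strand) for Robo4, chr12:58269259-58269508 (minus strand) for Clec14a, chr3:137340828-137341077 (plus strand) for Emcn, chr1:194938571-194938820 (plus strand) for Cd34 and chr16:18776597-18776846 (plus strand) for Cldn5.
Robo4: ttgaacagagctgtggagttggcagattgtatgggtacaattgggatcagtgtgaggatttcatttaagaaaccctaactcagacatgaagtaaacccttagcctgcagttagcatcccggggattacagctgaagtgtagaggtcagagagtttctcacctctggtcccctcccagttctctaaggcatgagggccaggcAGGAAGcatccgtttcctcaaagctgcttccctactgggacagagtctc
Clec14a: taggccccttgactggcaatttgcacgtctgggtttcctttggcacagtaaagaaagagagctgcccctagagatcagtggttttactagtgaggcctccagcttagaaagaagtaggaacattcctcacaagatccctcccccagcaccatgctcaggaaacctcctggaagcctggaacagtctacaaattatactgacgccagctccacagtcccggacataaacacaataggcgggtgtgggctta
Emcn: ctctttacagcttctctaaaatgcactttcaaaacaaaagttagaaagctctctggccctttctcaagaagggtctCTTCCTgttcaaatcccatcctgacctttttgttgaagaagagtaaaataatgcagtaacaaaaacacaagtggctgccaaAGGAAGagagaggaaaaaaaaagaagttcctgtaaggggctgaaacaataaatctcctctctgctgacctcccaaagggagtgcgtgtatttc
Cd34: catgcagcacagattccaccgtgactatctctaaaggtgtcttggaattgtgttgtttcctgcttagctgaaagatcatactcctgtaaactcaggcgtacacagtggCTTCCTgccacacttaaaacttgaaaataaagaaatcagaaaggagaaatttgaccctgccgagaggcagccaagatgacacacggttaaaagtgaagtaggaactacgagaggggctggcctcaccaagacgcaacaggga
Cldn5: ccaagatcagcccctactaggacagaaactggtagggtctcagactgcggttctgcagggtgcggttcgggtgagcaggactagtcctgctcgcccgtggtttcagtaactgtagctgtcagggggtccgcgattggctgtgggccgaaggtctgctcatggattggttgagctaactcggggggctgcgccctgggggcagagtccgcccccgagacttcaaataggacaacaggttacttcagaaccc
The last 75 bases of the Robo4 window and the last 11 of the Emcn window lie inside the interval the deposited table gives for the gene.

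AGGAAG stood in 3 of these 5 promoters, 1 time in Robo4 (49 to 44 bases before the start), 2 times in Emcn (93 to 88 bases before it, and as CTTCCT 174 to 169 bases before it) and 1 time in Cd34 as CTTCCT (142 to 137 bases before it). It stood in 29.5% of the 32851 promoters of the table. The other motifs were searched on both strands in the same windows. None of the 5 held CCGGAAG, a second ETS-like motif found in 6.91% of all promoters. None held AGATAA, which the GATA factors prefer and 9.99% of all promoters hold, and none held ACAATG (SOX-like, 10.7%). CAGACA (SMAD-like, 17.1%) stood in Robo4, TGTTTA (FOX-like, 12%) and GGAATG (TEAD-like, 12.6%) in Clec14a, and GGGCGG (KLF-like, 32.7%) in Cldn5. A match is a description of the letters, not a binding site. Cldn5 had the highest GC content at 59.6% with 12 CG pairs, and Emcn the lowest at 40.8% with 1 CG pair, against medians of 52.4% and 6 over all promoters of the table.

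The libraries held 10215792 to 19552380 counted reads each, and the lowest count of any of the 10 genes in any library was 138 reads (Emcn in the first Hdac1 4OHT library). Levels are CPM, read counts scaled to library size with TMM factors (trimmed mean of M-values), a change was called at a Benjamini-Hochberg adjusted p under 0.05 over all genes tested with edgeR's quasi-likelihood test, and fold changes are given as log2 with their standard error (SE) from that fit. In its own line Hdac2 had 149 and 149 CPM with 4OHT and 165 and 150.5 CPM with EtOH, and Hdac1 in its own line had 6.99 and 7.12 CPM with 4OHT and 5.78 and 5.60 CPM with EtOH. In the other line, Hdac1 had 5.12 and 4.00 CPM with 4OHT and 7.45 and 7.16 CPM with EtOH in Hdac2lox/lox cells, so its counts were lower with 4OHT there and higher with 4OHT in the line labelled for its own deletion. Whole-gene counts of these genes thus do not bear out the labels. Reads were counted per gene, not per exon, so these counts cannot show whether part of either gene was removed. They do not check the deletion either way, and groups are named as labelled. All 8 defining endothelial markers (Cdh5, Kdr, Tek, Tie1, Erg, Fli1, Egfl7 and Sox18) had reads in every library, as had all 11 haematopoietic markers. The 2 libraries of the Hdac1 line under each agent stood far apart. Their counts differed by a chi-square of 43.7 per degree of freedom in 4OHT and 99.0 in EtOH, against 15.5 in 4OHT and 12.1 in EtOH in the Hdac2 line, and the deviations of same-numbered Hdac1 libraries from their group means correlated at -0.69 across genes. Whether only the numbers were crossed or libraries were exchanged between the agents in that line cannot be told apart from these counts, and every value of the Hdac1 line, and every comparison with it, rests on the labels as given. RNA was taken from bulk samples, so fewer cells of a type and less RNA per cell cannot be told apart.

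In the Hdac2 line, 5 of the 10 genes were higher with 4OHT than with EtOH and none was called lower: Robo4, Clec14a, Cdh5, Pecam1 and Emcn. Their levels with 4OHT were 2.12- to 4.72-fold those with EtOH. Plvap just missed the threshold, Esam, Icam2 and Cd34 were within 0.21 of 0 on the log2 scale, and Cldn5 was lower in both 4OHT libraries but was not called. In this comparison 18.9% of all genes tested were called higher and 17.2% lower, 36.1% in all, so 50% of this group stands beside 18.9%. The 10 genes were chosen with earlier results of these data known, so these 2 shares are set side by side as a description. The median log2 fold change of the 10 genes was 1.08, against -0.02 for all genes tested. In 6 of the 10 genes both 4OHT libraries lay above both EtOH libraries and in 2 both lay below, and over all genes tested these shares were 38.6% and 39.7%, 78.3% together.

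**Figure D1:**
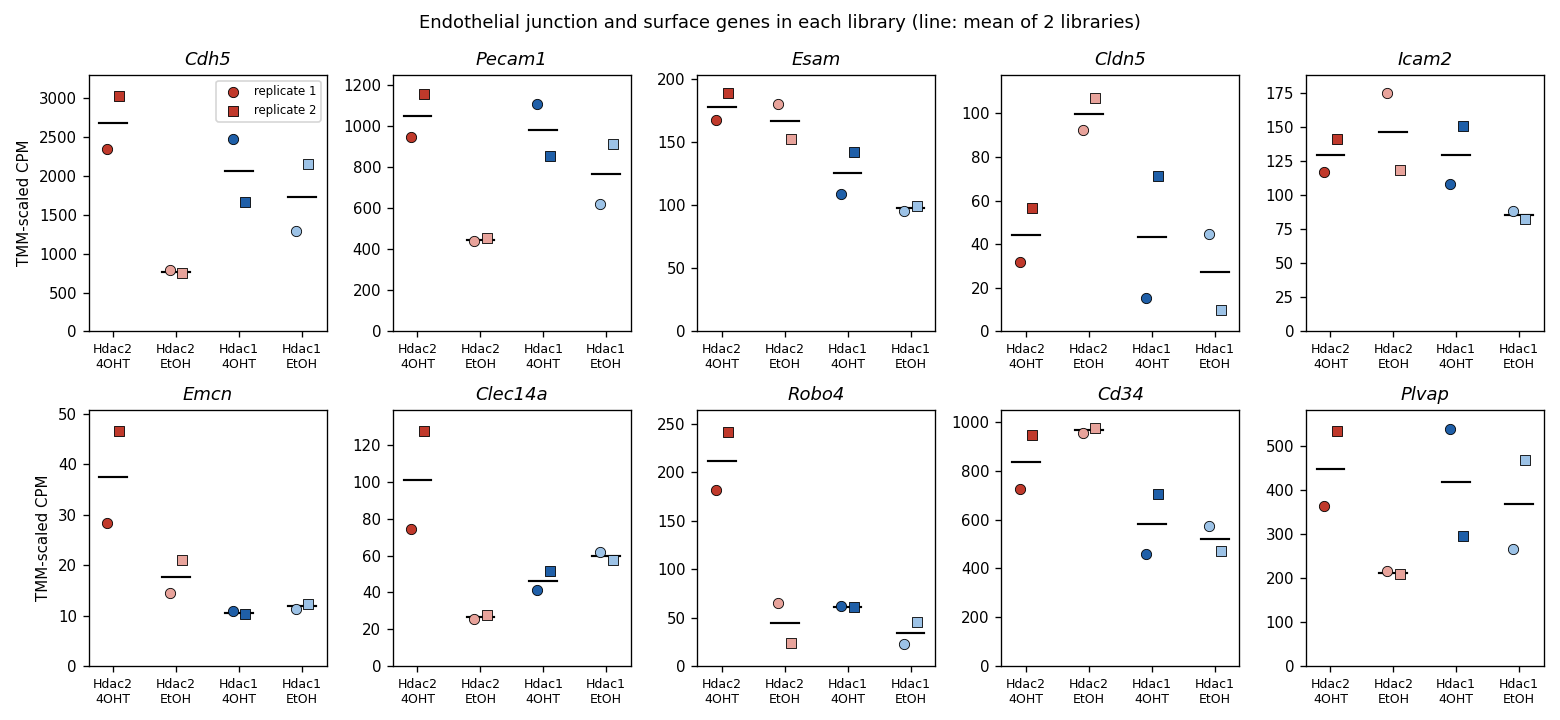
Level of each of the 10 genes in each library, in TMM-scaled CPM on a linear axis that starts at 0 (circle: replicate 1, square: replicate 2, black line: mean of the 2 libraries), with Hdac2 4OHT, Hdac2 EtOH, Hdac1 4OHT and Hdac1 EtOH from left to right. Cdh5 shows the wide gap in the Hdac2 line, 2342 and 3026 CPM with 4OHT against 786 and 745 CPM with EtOH, and the overlap of the groups in the Hdac1 line.

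Among the junction genes, Cdh5 had 2342 and 3026 CPM in the Hdac2 4OHT libraries and 786 and 745 CPM in the Hdac2 EtOH libraries. Both 4OHT libraries were thus far above both EtOH libraries, and the 2 EtOH libraries nearly coincided. The log2 fold change of Cdh5 was 1.81 (SE 0.31, 95% interval 1.10 to 2.52, adjusted p = 0.00982), a 3.51-fold difference. Pecam1, whose product signals and adheres at the same borders, had 947 and 1155 CPM with 4OHT and 441 and 454 CPM with EtOH. Its groups did not overlap either, and its log2 fold change was 1.23 (SE 0.24, 95% interval 0.68 to 1.78, adjusted p = 0.0124).

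The other 3 junction genes were not called. Esam had 167 and 189 CPM in the Hdac2 4OHT libraries and 180.2 and 153 CPM in the Hdac2 EtOH libraries, and the groups overlapped (log2 fold change 0.10, 95% interval -0.32 to 0.52, adjusted p = 0.689). Icam2, a ligand of leukocyte integrins, had 117 and 142 CPM with 4OHT and 175 and 119 CPM with EtOH, again with overlap (log2 fold change -0.18, 95% interval -0.74 to 0.37, adjusted p = 0.564). Their intervals reach at most 0.52 upward, below the estimates for Cdh5 and Pecam1. Cldn5 had 31.9 and 56.7 CPM with 4OHT and 92.5 and 107 CPM with EtOH. Both of its 4OHT libraries lay below both EtOH libraries, but with a log2 fold change of -1.17 and an SE of 0.80 the interval ran from -3.03 to 0.68 (adjusted p = 0.268).

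Of the receptors, Clec14a had 74.5 and 127 CPM in the Hdac2 4OHT libraries and 25.4 and 27.5 CPM in the Hdac2 EtOH libraries, a log2 fold change of 1.93 (SE 0.26, 95% interval 1.32 to 2.54, adjusted p = 0.00810). It had the smallest adjusted p of the 10. Robo4 had 182 and 241 CPM with 4OHT and 65.4 and 23.9 CPM with EtOH. Its log2 fold change of 2.24 was the largest of the 10 (SE 0.49, 95% interval 1.11 to 3.37, adjusted p = 0.0158), and its EtOH libraries differed from each other by more than those of the other called genes.

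The sialomucins parted. Emcn had 28.4 and 46.6 CPM in the Hdac2 4OHT libraries and 14.5 and 21.0 CPM in the Hdac2 EtOH libraries, and was called higher (log2 fold change 1.08, SE 0.28, adjusted p = 0.0240). Cd34 had 725 and 945 CPM with 4OHT and 955 and 974 CPM with EtOH. Both of its 4OHT libraries were below both EtOH libraries, one of them only just, and its log2 fold change of -0.21 (SE 0.24, 95% interval -0.78 to 0.36) was not called (adjusted p = 0.515). Plvap, the diaphragm protein, had 364 and 534 CPM with 4OHT and 216 and 210.3 CPM with EtOH. Its groups did not overlap, and with a log2 fold change of 1.08 (SE 0.36, 95% interval 0.24 to 1.91) its adjusted p was 0.0506.

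**Figure D2:**
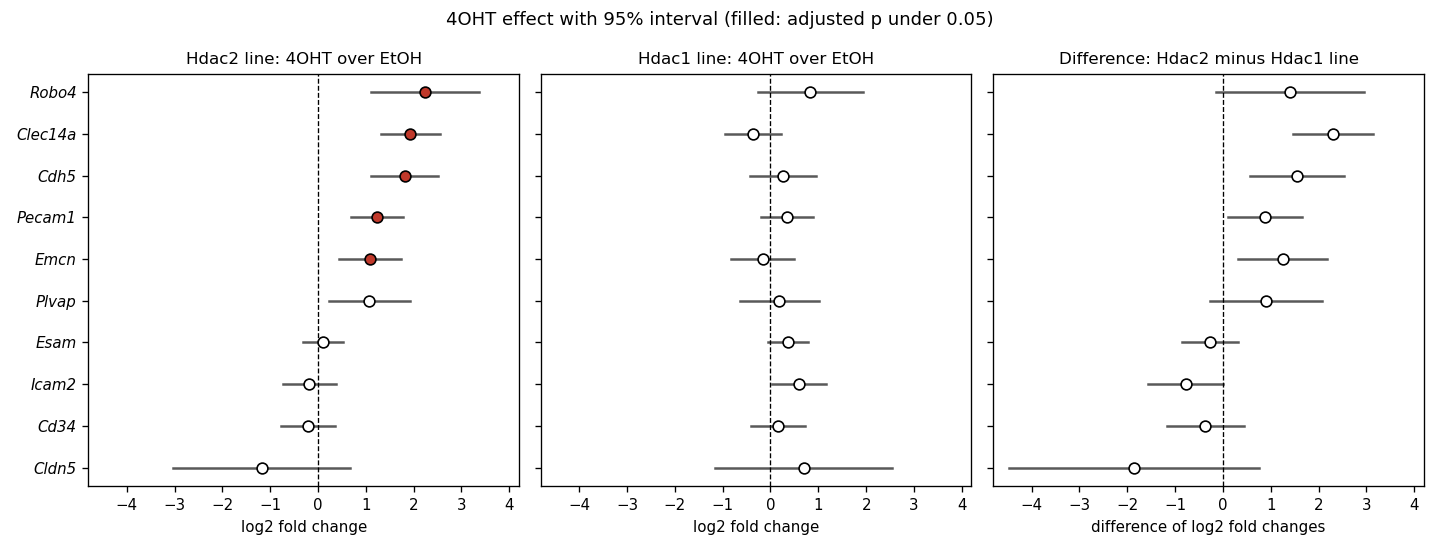
Log2 fold change of each gene with its 95% interval from the fit to all 8 libraries, for 4OHT over EtOH in the Hdac2 line (left), in the Hdac1 line (middle) and for the difference Hdac2 minus Hdac1 line (right), with filled points for adjusted p under 0.05. Only the left panel has filled points, for Robo4, Clec14a, Cdh5, Pecam1 and Emcn, and the intervals of Cldn5 are the widest in each panel.

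The 5 calls depend on having both libraries of each Hdac2 group. Without the first 4OHT library the Robo4 call was lost, without the second most calls, and without either EtOH library all of them. Most calls over all genes tested were then lost too. The log2 fold change ran from 1.61 to 1.98 for Cdh5 and 1.49 to 2.27 for Clec14a in these fits. For Pecam1 it ran from 1.08 to 1.37 and for Emcn from 0.68 to 1.40. Robo4 also moved in size, to a log2 fold change of 1.70 without the second EtOH library and 3.15 without the first.

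Marker genes of other cell types also differed between the Hdac2 groups. Each count of markers called stands beside 18.9% of all genes tested called higher and 17.2% called lower in this comparison. The summed level of 11 erythroid markers, mostly the embryonic globins Hbb-bh1 and Hba-x, was 388 and 241 CPM with 4OHT and 1792 and 1683 CPM with EtOH, and 6 of the 11 were called lower. The summed level of 10 smooth muscle and mesenchyme markers was 6505 and 4309 CPM with 4OHT and 2208 and 1545 CPM with EtOH, mostly from Acta2 and Tagln, and 4 of the 10 were called higher. The 11 haematopoietic markers summed to 355 and 338 CPM with 4OHT and 516 and 478 CPM with EtOH, and 1 was called higher and 3 lower. Macrophage markers summed to 68.3 and 62.1 CPM with 4OHT and 32.1 and 48.0 CPM with EtOH (5 of 8 tested called higher). Cardiomyocyte markers summed to 33.1 and 37.9 CPM with 4OHT and 12.8 and 9.26 CPM with EtOH (3 of 5 tested called higher). Both sums were small beside the erythroid and smooth muscle ones, with Fcgr1, C1qa, Cx3cr1 and Adgre1 of the macrophage list and Myl2, Tnni3, Myh6 and Myl7 of the cardiomyocyte list at 0 in some library. Pluripotency markers summed to at most 4.55 CPM and visceral endoderm markers to at most 11.6 CPM in any of the 8 libraries. The part of these cell-type differences in the results for the 10 genes was not tested.

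The levels of the 10 genes were also set against the other endothelial markers, as a description chosen after the values were seen. The 7 defining endothelial markers other than Cdh5 summed to 2796 and 3963 CPM in the Hdac2 4OHT libraries and 1824 and 2010.0 CPM in the Hdac2 EtOH libraries, a ratio of means of 1.76. Per 100 CPM of these markers, Cdh5 averaged 80.1 CPM with 4OHT and 40.1 CPM with EtOH, Pecam1 31.5 and 23.4 CPM, Clec14a 2.94 and 1.38 CPM and Robo4 6.30 and 2.39 CPM, each with 4OHT first. These 4 stayed higher in both 4OHT libraries after that division, as did Plvap with a ratio of means of 1.19. Emcn overlapped. Cd34 averaged 24.9 CPM with 4OHT and 50.4 CPM with EtOH per 100 CPM of the markers, Esam 5.38 and 8.74 CPM, Icam2 3.88 and 7.74 CPM and Cldn5 1.29 and 5.20 CPM, and in these 4 both 4OHT libraries lay below both EtOH libraries. The divisor was itself higher with 4OHT, and on this scale 13.3% of all genes tested lay above and 64.9% below without overlap, so 5 of the 10 stand beside the 13.3% and 4 of the 10 beside the 64.9%.

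In the Hdac1 line none of the 10 genes was called, and none of the genes tested either (0%, 947 of 14179 at an unadjusted p under 0.05, and 32 called by DESeq2's Wald test). The log2 fold changes of the 10 genes ran from -0.37 in Clec14a to 0.83 in Robo4, with a median of 0.31 against -0.02 for all genes tested, and their adjusted p-values from 0.733 to 0.955. Both 4OHT libraries lay above both EtOH libraries in 3 of the 10 genes and below in 2, where the shares over all genes tested were 15.8% and 15.4%, 31.2% together.

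The Hdac1 line showed 2 crossed patterns within its groups. Cdh5 had 2471 and 1664 CPM in the Hdac1 4OHT libraries and 1296 and 2151 CPM in the Hdac1 EtOH libraries (log2 fold change 0.26, SE 0.30, 95% interval -0.42 to 0.95). The 2 groups overlapped, and Plvap had the same order, with 539 and 297 CPM in the 4OHT libraries and 268 and 469.6 CPM in the EtOH libraries. Pecam1 followed it, with 1106 and 854 CPM in the 4OHT libraries and 623 and 912 CPM in the EtOH libraries. Cldn5 ran the other way, with 15.5 and 71.5 CPM in the 4OHT libraries and 44.6 and 9.60 CPM in the EtOH libraries. Cd34 had 459.6 and 704 CPM in the 4OHT libraries and 573 and 469.8 CPM in the EtOH libraries, so its low libraries were those in which Cdh5 was high. The erythroid markers summed to 169 and 447 CPM in the Hdac1 4OHT libraries and 956 and 298 CPM in the Hdac1 EtOH libraries, in the order of Cldn5 rather than that of Cdh5 within each group, and their part in these patterns was not tested.

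The groups of the Hdac1 line were apart in 5 genes. Icam2 had 108 and 151 CPM with 4OHT and 88.7 and 82.7 CPM with EtOH, and its log2 fold change of 0.60 (SE 0.24, 95% interval 0.04 to 1.15) was the only one of the 10 with an unadjusted p under 0.05 (adjusted p = 0.733). Esam had 109 and 142 CPM with 4OHT and 95.6 and 99.5 CPM with EtOH, a log2 fold change of 0.37 that was not called. Robo4 had 61.7 and 61.4 CPM with 4OHT and 22.9 and 46.1 CPM with EtOH, with an interval of its log2 fold change from -0.26 to 1.93. Clec14a, by contrast, was the lower with 4OHT in both libraries, 41.2 and 51.4 CPM with 4OHT and 61.9 and 57.8 CPM with EtOH. Emcn was low throughout, 10.8 and 10.3 CPM with 4OHT and 11.3 and 12.4 CPM with EtOH. None of these 5 differences passed the adjusted threshold.

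**Figure D3:**
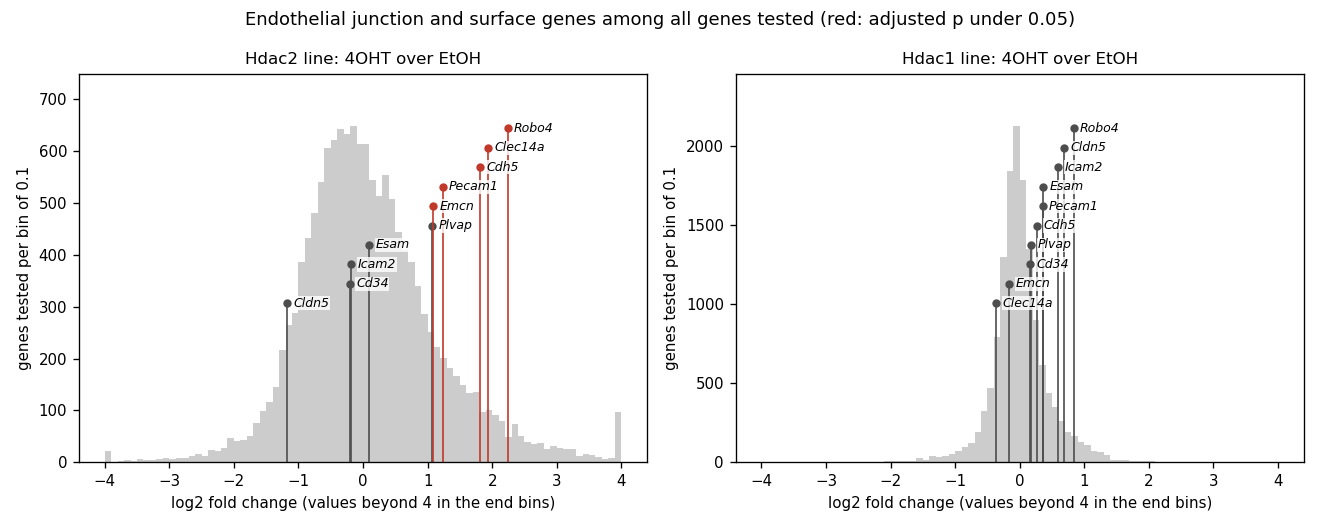
Histogram of the log2 fold changes of all genes tested in the Hdac2 line (left) and the Hdac1 line (right), 4OHT over EtOH, in bins of 0.1, with a vertical line and dot for each of the 10 genes (red: adjusted p under 0.05; line heights only separate the names). The 5 called genes of the Hdac2 line lie between 1.08 and 2.24, while in the Hdac1 line all 10 lie between -0.37 and 0.83.

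A call in one line and not in the other does not show that the lines differ, so the difference of the 4OHT effects, Hdac2 minus Hdac1 line, was tested directly. None of the 10 genes passed, in a comparison in which 0.0282% of all genes tested, 4 genes, were called (0.0141% in each direction), while 4 of the 10 and 3973 of the 14179 had an unadjusted p under 0.05. Clec14a came nearest, with a difference of 2.30 (SE 0.36, 95% interval 1.46 to 3.15, adjusted p = 0.0637). Its level moved in opposite directions in the 2 lines, although only the Hdac2 line change was called. Cdh5 differed by 1.55 (SE 0.42, 95% interval 0.57 to 2.52, adjusted p = 0.0910), Emcn by 1.25 (SE 0.40, adjusted p = 0.112) and Pecam1 by 0.88 (SE 0.33, adjusted p = 0.144). For Robo4 the difference was 1.41 with an interval from -0.14 to 2.95, and for Cldn5 -1.87 with an interval from -4.48 to 0.75, so neither excluded 0. Without the first Hdac1 EtOH library, Cdh5, Pecam1 and Clec14a were called with the larger effect in the Hdac2 line and Cldn5 with the more negative one, and 3773 of all genes were called.

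The lines were also compared under each agent. These comparisons share their libraries with those above. In EtOH, Esam was called higher in the Hdac2 line than in the Hdac1 line, 180.2 and 153 CPM against 95.6 and 99.5 CPM (log2 fold change 0.77, SE 0.18, adjusted p = 0.0424). Clec14a was called lower in the Hdac2 line, 25.4 and 27.5 CPM against 61.9 and 57.8 CPM in the Hdac1 line (log2 fold change -1.18, SE 0.26, adjusted p = 0.0368). Over all genes tested 9.33% were called, 2.91% higher and 6.42% lower. The EtOH groups did not overlap in 9 of the 10 genes, Robo4 being the exception, where the share over all genes was 60.1% (29.9% with the Hdac2 line above, 30.3% with it below). Cdh5 was lower in both Hdac2 EtOH libraries with a log2 fold change of -1.17 and an adjusted p of 0.0503, and Cd34 was higher, 955 and 974 CPM in the Hdac2 line against 573 and 469.8 CPM in the Hdac1 line (log2 fold change 0.89, adjusted p = 0.0582). Both calls were lost without either Hdac2 EtOH library and without the second Hdac1 EtOH library, fits in which 1, 4 and 172 of all genes were still called, against 1323 with all libraries. Without the first Hdac1 EtOH library 7 of the 10 and 3896 of all genes were called. Without either Hdac2 4OHT library Clec14a alone was called (171 and 168 of all genes). Without either Hdac1 4OHT library 4 of the 10 were, Cd34 and Cdh5 besides Esam and Clec14a (1281 and 1218 of all genes).

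In the 4OHT libraries Emcn was called higher in the Hdac2 line, 28.4 and 46.6 CPM against 10.8 and 10.3 CPM in the Hdac1 line (log2 fold change 1.82, SE 0.29, adjusted p = 0.0216). Clec14a was called higher as well, 74.5 and 127 CPM in the Hdac2 line against 41.2 and 51.4 CPM in the Hdac1 line (log2 fold change 1.12, SE 0.26, adjusted p = 0.0403). Clec14a thus stood lower in the Hdac2 line than in the Hdac1 line in EtOH and higher in 4OHT. Over all genes tested 8.02% were called, 3.75% higher and 4.27% lower. Robo4, with 182 and 241 CPM in the Hdac2 line against 61.7 and 61.4 CPM in the Hdac1 line, had a log2 fold change of 1.78 and an adjusted p of 0.0611. Cdh5, Pecam1, Plvap, Cldn5 and Icam2 overlapped between the lines in 4OHT, with log2 fold changes from -0.0028 (Icam2) to 0.38 (Cdh5). In all, 5 of the 10 genes lay higher in both Hdac2 libraries and none lower, beside 30.7% and 31.6% of all genes, 62.3% together. Leaving out any 1 of the 4 4OHT libraries left none of the 10 called, and of all genes 0 without either Hdac2 library, 37 without the first Hdac1 library and 16 without the second, against 1137 with all libraries. Without either Hdac2 EtOH library Emcn alone was called (411 and 403 of all genes), and without either Hdac1 EtOH library Robo4 was called too (2273 and 2289 of all genes).

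To rank the genes against each other, counts were divided by exonic length and given as CPM per kilobase of exon (RPKM). Cdh5 stood first in all 4 groups, with 639 ± 115 RPKM in Hdac2 4OHT, 182 ± 6.95 in Hdac2 EtOH, 492 ± 136 in Hdac1 4OHT and 410.0 ± 144 in Hdac1 EtOH (SD, n = 2 each). Emcn stood last in all 4, with 6.93 ± 2.37 RPKM in Hdac2 4OHT, 3.28 ± 0.857 in Hdac2 EtOH, 1.95 ± 0.0690 in Hdac1 4OHT and 2.19 ± 0.145 in Hdac1 EtOH. In Hdac2 4OHT, Cdh5 was followed by Plvap (226 ± 60.4 RPKM), Pecam1 (169 ± 23.6), Cd34 (115 ± 21.4), Icam2 (67.9 ± 9.08), Esam (62.2 ± 5.38), Robo4 (39.9 ± 7.88), Cldn5 (31.3 ± 12.4) and Clec14a (22.1 ± 8.19). Plvap and Pecam1, Icam2 and Esam, Robo4 and Cldn5, and Cldn5 and Clec14a differed there by less than the sum of their SDs. In Hdac2 EtOH the order after Cdh5 was Cd34 (132 ± 1.85 RPKM), Plvap (107 ± 2.04), Icam2 (77.1 ± 20.9), Pecam1 (71.8 ± 1.49), Cldn5 (70.5 ± 7.37), Esam (58.1 ± 6.73), Robo4 (8.42 ± 5.54) and Clec14a (5.79 ± 0.324). From Icam2 to Esam each neighbour in that order was within the sum of the SDs, as were Robo4 and Clec14a. In both Hdac1 groups the order was Cdh5, Plvap, Pecam1, Cd34, Icam2, Esam and Cldn5 from the top. Plvap and Pecam1, and Esam and Cldn5, were within the sum of their SDs in both, as were Cd34 and Icam2 in Hdac1 4OHT. Pecam1 and Cd34 thus changed places between the agents in the Hdac2 line: Pecam1 ranked 3 and Cd34 ranked 4 with 4OHT, and Pecam1 ranked 5 and Cd34 ranked 2 with EtOH.

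**Figure D4:**
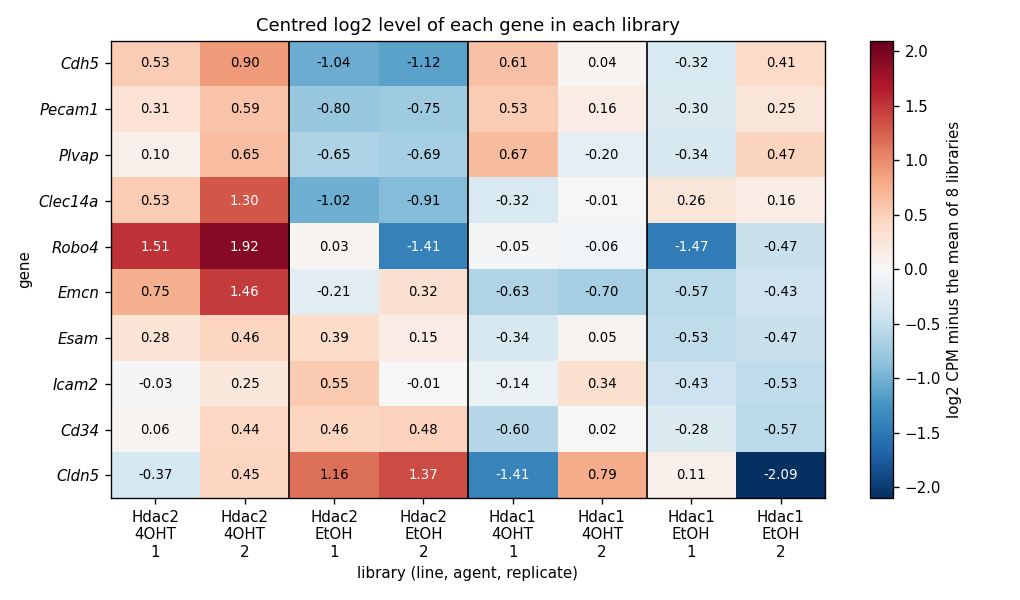
Log2 CPM of each gene in each library minus the gene's mean over the 8 libraries (red: above its own mean, blue: below), with columns grouped as Hdac2 4OHT, Hdac2 EtOH, Hdac1 4OHT and Hdac1 EtOH and the replicate number under each. Cdh5, Pecam1, Plvap and Clec14a are low in both Hdac2 EtOH libraries, where Cldn5 is at 1.16 and 1.37. In the Hdac1 line Cldn5 and Cdh5 take opposite colours in the first 4OHT library and in both EtOH libraries, faintly in the first EtOH library.

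The genes differed in how much they varied. The highest library was 11.2 times the lowest in Cldn5, 10.5 times in Robo4, 5.02 times in Clec14a, 4.52 times in Emcn and 4.06 times in Cdh5, and between 1.98 times in Esam and 2.62 times in Pecam1 for the remaining 5. After centring each gene's log2 CPM on its own mean over the 8 libraries, profiles were compared by their root-mean-square difference (log2 units), a description over 8 libraries that share depth and scaling. Pecam1 and Plvap were the closest pair at 0.18, followed by Esam and Cd34 at 0.20, Esam and Icam2 at 0.20 and Cdh5 and Pecam1 at 0.22. Cdh5 and Cldn5 were the farthest apart at 1.70. In each of the 2 pairs of near neighbours 1 gene was called in the Hdac2 line. Robo4 was called and Esam, 114 kb away, was not, and the 2 tested genes between them, Robo3 and Msantd2, were not called. Pecam1 was called and Icam2, 266 kb away, was not, and of the 3 tested genes between them 2 were called higher and 1 lower. Over all genes tested 36.1% were called. Any part of position on the chromosome was not tested.

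Outside the group, the genes whose profiles lay closest to the mean profile of the 10 were Kcnk6 at a root-mean-square difference of 0.10, P2ry2 and Enah at 0.11, and Atl1, Elk3 and Zfp28 at 0.12, among 9892 other genes with a mean of at least 5 CPM. The 10 genes themselves lay 0.28 (Esam) to 1.14 (Cldn5) from that mean, so the mean profile describes none of them closely. Elk3 encodes an ETS-family transcription factor and had 272 and 369 CPM in the Hdac2 4OHT libraries and 219 and 223 CPM in the Hdac2 EtOH libraries.

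The wider junction and surface machinery was described with 4 lists, of which the other surface genes and the ligands share Sele, counted as called in both. Of 29 tested junction partners, 17 were called higher and 1 lower with 4OHT in the Hdac2 line, with a median log2 fold change of 0.89 beside -0.02 for all genes. These are 58.6% and 3.45% of the list, beside 18.9% and 17.2% of all genes tested. Those with the smallest adjusted p were Cgnl1 (paracingulin, a tight and adherens junction plaque protein, log2 fold change 2.70), Vcl (vinculin, which ties cadherin complexes to actin, 1.60) and Cdh2 (N-cadherin, 2.09), with adjusted p-values of 0.00810, 0.00868 and 0.00876 in that order. The 1 lower gene was Gja1 (connexin 43, -0.71, adjusted p = 0.0437). Cxadr (-1.01, adjusted p = 0.150) and Cldn12 (-0.33, adjusted p = 0.160) were below 0 but not called. Cldn15 had too few reads to be tested.

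Of 30 tested other surface genes of endothelium, 18 were called higher and 1 lower in the Hdac2 line, with a median log2 fold change of 0.86. These are 60% and 3.33% of the list, beside 18.9% and 17.2% of all genes tested. Those higher were led by Cd93 (a relative of Clec14a that also binds multimerin 2, log2 fold change 2.29, adjusted p = 0.00636), Adgrf5 (an adhesion receptor, 2.76, adjusted p = 0.00724) and Icam1 (a leukocyte adhesion molecule, 1.97, adjusted p = 0.00853). Aplnr, the apelin receptor, was called lower (-1.68, adjusted p = 0.0320), and Gpr182 (-0.99, adjusted p = 0.199) and Thbd (thrombomodulin, -0.03, adjusted p = 0.905) were not called. Stab2 and Cd36 had too few reads to be tested.

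Of 20 ligands and binding partners, 8 were called higher and none lower, with a median of 0.82. These 8 are 40% of the list, beside 18.9% of all genes tested called higher and 17.2% lower. Mmrn2, the multimerin that CLEC14A binds, had a log2 fold change of 1.17 (adjusted p = 0.0113), so ligand and receptor were both called higher in the Hdac2 line. Vegfa, the endothelial growth factor (1.48, adjusted p = 0.0163), and Rdx, radixin (0.92, adjusted p = 0.0171), were also called. Ptpn6, a phosphatase that binds the PECAM1 tail (-0.70, adjusted p = 0.0611), Mmrn1 (-0.88, adjusted p = 0.142) and Itgb2, a subunit of the integrin that binds ICAM2 (-0.44, adjusted p = 0.397), were not.

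Of the 22 transcription factors of endothelium, 7 were called higher and 3 lower, with a median of 0.41. These are 31.8% and 13.6% of the list, beside 18.9% and 17.2% of all genes tested. Tcf4 (1.59, adjusted p = 0.0179), Sox17 (2.13, adjusted p = 0.0231) and Foxo1 (0.95, adjusted p = 0.0232) had the smallest adjusted p among those higher. The 3 lower were Tal1 (-1.18, adjusted p = 0.00868), Lmo2 (-2.01, adjusted p = 0.00893) and Etv2 (-2.75, adjusted p = 0.0137), which are known for the specification of blood and endothelium from mesoderm.

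Without the first 4OHT library of the Hdac2 line the 4 lists held 5, 10, 1 and 0 genes called higher, in the order junction partners, other surface genes, ligands and partners, and transcription factors. Without the second they held 0, 2, 0 and 0, without the first EtOH library 0, 1, 0 and 0, and without the second EtOH library none. The counts at an unadjusted p under 0.05 and higher then ran from 16 to 18, 15 to 21, 8 to 9 and 5 to 10 in the same order of lists.

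**Figure D5:**
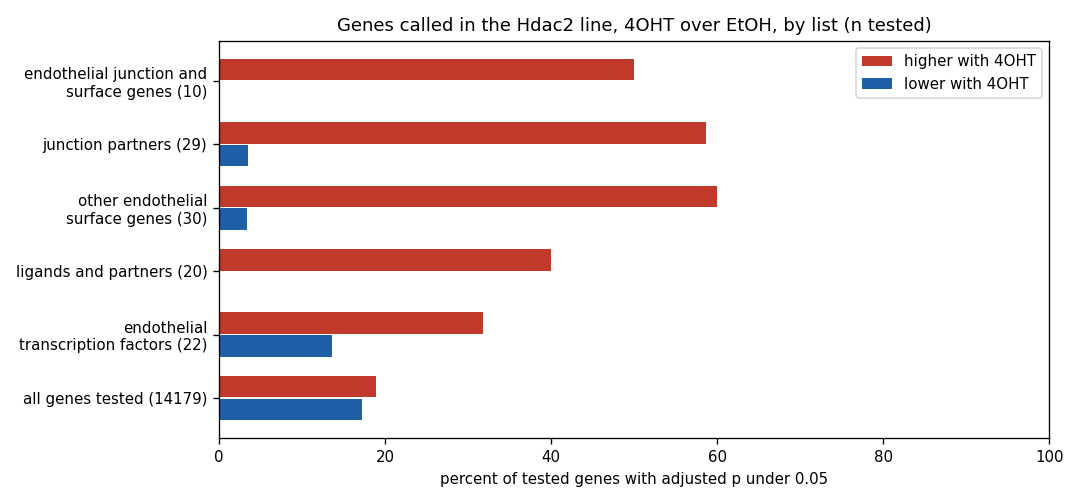
Percent of tested genes called higher (red) and lower (blue) with 4OHT over EtOH in the Hdac2 line, for the 10 junction and surface genes, the 4 lists and all genes tested, with the number tested in brackets. The 10 genes stand at 50% higher, junction partners at 58.6% and other surface genes at 60.0%, against 18.9% of all genes tested. The 10 genes and the lists were chosen with earlier results of these data known, so the shares are a description.

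In the Hdac1 line no gene of the 4 lists was called, with medians of 0.30, 0.27, 0.10 and 0.10 in the same order. The smallest adjusted p of these genes was 0.712, shared by 8 genes: Nectin2 (a nectin of cell junctions, log2 fold change 0.85), Mcam (1.25), Procr (0.83), Thbd (1.04), Icam1 (1.23), Mmrn2 (0.83), Sele (E-selectin, 1.87) and Tal1 (-0.66). Mcam and Procr are named after their values were seen. Arvcf (a catenin, 0.88), Klf4 (0.91) and Sox7 (0.61) were above 0, and Gja4 (connexin 37, -0.82), Marveld2 (-0.23), Calcrl (-0.29), Tie1 (-0.19), Mmrn1 (-1.06), Itgb3 (-0.57) and Hey2 (-1.12) below it, none of them called. Tests of the difference between the lines called none of the genes of the 4 lists.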

How the data were processed

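The authors deposited whole-number read counts per gene for 41128 genes in 8 libraries, not normalized. Per the labels' protocols, 200 ng of total RNA went into a strand-specific kit with 15 amplification cycles. Per the submitters' processing notes, reads were handled with Bowtie2 2.2.1, bcl2fastq 2.17.1.14, edgeR 3.8.5, SAMtools 0.1.19 and R 3.1.0 on mm10, in roles those notes leave out. Not given in the sources used here are the program that counted reads, its annotation, its strand setting and its treatment of multiply mapped reads, which bear on overlapping genes such as Plvap and Gtpbp3.

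From these counts, filterByExpr kept 14179 genes, TMM scaled the libraries, and edgeR 4.0.16 (R 4.3.3) fitted a robust quasi-likelihood model with a mean per group to all 8 libraries. Benjamini-Hochberg adjustment ran over all genes tested, at 0.05. Standard errors came from the F statistic and intervals from its degrees of freedom. Log2 CPM profiles used a prior count of 2. RPKM used GENCODE M21 exonic lengths. A floor of 3 counts is 0.150 to 0.287 CPM per library. Depth was 10215792 to 19552380 reads. Libraries carried no stated molecular identifiers, so reads that are PCR copies count as separate and the floor covers counting error only. Alternatives used DESeq2 1.42.0 and limma 3.58.1. The fit was tested on simulated data.

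Named were the 10 genes, up to 3 genes per list and direction with the smallest adjusted p in the Hdac2 line and up to 2 in the Hdac1 line, the 6 genes closest in profile, and Hdac1 and Hdac2. In all, 6 list members were matched under older symbols by gene identifier. The 10 genes and the lists were chosen with earlier results of these data known.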

Additional observations from a re-analysis of the deposited data

How the results depend on the processing

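In the Hdac2 line, 4 to 7 of the 10 genes were called under every alternative that kept all 8 libraries or all 4 of that line, beside 5 as reported. The lowest count came without a filter on low counts, which lost Robo4. The highest came from a fit to that line alone, which added Plvap higher and Cldn5 lower. Of all genes that fit called 7272, against 5113 of 14179 as reported, and the fit without a filter called 4975 of 21564. Plvap was called in 9 of 19 settings, counting the reported one. In the Hdac1 line none was called under any alternative run. For the difference between the lines, 3 were called without a filter, 3 by DESeq2's Wald test (Emcn, Cdh5 and Clec14a) and 4 with the crossed replicate block, against 0 as reported, while 1187, 1781 and 2541 of all genes were called, against 4. For the EtOH libraries, 6 were called without a filter, 6 by DESeq2's Wald test, 0 with the replicate block, which thus ended the calls of Esam and Clec14a, and 6 with the crossed block, against 2. Of all genes 2064, 2801, 184 and 3576 were then called, against 1323. For the 4OHT libraries, 1 was called with no scaling beyond library size and 1, Emcn, with the replicate block, which thus ended the call of Clec14a, against 2. DESeq2's Wald test and the crossed block each called 3 there (Emcn, Robo4 and Clec14a). Of all genes 1254, 223, 2023 and 2458 were then called, against 1137. The cause of these shifts was not tested. Leaving out 1 library, the counts ran from 0 to 6 in the Hdac2 line, 0 to 4 for the difference, 0 to 7 in EtOH and 0 to 3 in 4OHT. A lone library was then assumed to vary like the other groups.

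Directions changed among genes that were not called. In the Hdac2 line Esam was -0.037 with upper quartile scaling and -0.024 with no scaling. Those scalings moved the median log2 fold change of all genes there to -0.15 and -0.14, so single genes sit lower there by the same shift. In the 4OHT libraries Icam2 was 0.018 with DESeq2 size factors, 0.018 by DESeq2's Wald test, 0.0093 by limma-voom and 0.024 with the crossed block. There Cldn5 was -0.051 with upper quartile scaling and -0.14 with no scaling, and Pecam1 was -0.0090 with no scaling. With no scaling, the calls over all genes in that comparison were 434 higher and 820 lower, against 532 and 605, and in EtOH 315 and 1242, against 412 and 911.

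Leaving out 1 library, the log2 fold change ranged from -0.016 to 0.22 for Esam and -0.43 to 0.12 for Icam2 in the Hdac2 line. In the Hdac1 line it ranged from -0.18 to 0.44 for Cd34, -0.30 to 0.63 for Plvap, -0.057 to 0.67 for Cdh5 and -0.80 to 2.19 for Cldn5. In EtOH it ranged from -0.53 to 0.97 for Robo4. In 4OHT it ranged from -0.26 to 0.59 for Plvap, -0.23 to 0.26 for Icam2, -0.074 to 0.29 for Pecam1 and -0.70 to 1.51 for Cldn5.

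Whether the replicate numbers pair the samples was not resolved by the labels or the counts. Deviations of same-numbered libraries correlated at 0.26 between the Hdac2 groups and -0.69 between the Hdac1 groups, so a crossed pairing of the Hdac1 numbers was added after seeing the data. Libraries exchanged between the agents of that line cannot be told apart from crossed numbers by these counts. The replicate block left 5 of the 10 genes called in the Hdac2 line and 0 in the Hdac1 line, with 3624 of all genes called in the Hdac2 line against 5113. The crossed block called 6 of the 10 and 6676 of all genes there.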
